A study of Mus musculus with 6 samples.

Results

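T-bet, encoded by Tbx21, and 8 genes tied to it were read on arrays of peritoneal cavity (PC) B1a cells, the CD5+ B cells of the body cavities that secrete natural antibody. The members were chosen by name, as Tbx21, the T-bet positive B cell genes Itgax and Zeb2, the interferon gamma receptor genes Ifngr1 and Ifngr2, the IL-12 receptor genes Il12rb1 and Il12rb2, the signal transducer Stat4 and the cytokine Ifng. They are 9 of the 36163 gene names on the array and were read by 12 of its 55681 probes, all non-control probes that carry these names. The 3 knockout samples came from p40-/- CD25-/- mice and the 3 control samples from p40-/- CD25+/- mice, so that p40 was deleted in both groups and the groups differed in 1 or both copies of CD25, the IL-2 receptor alpha chain (IL-2Rα). All mice were females of 7 weeks on a C57Bl/6 background, the deletions were present in the whole animal and not in B cells alone, and every sample pooled at least 3 mice. RNA of B1a cells sorted by flow cytometry was labelled with Cy3 and hybridized to 1 array per sample.

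T-bet is the T-box transcription factor of type 1 responses in T, NK and B cells. In T cells it is induced by interferon gamma and by IL-12, the latter through STAT4, and it in turn acts on Ifng, Il12rb2 and chemokine and cytotoxic genes. In B cells it marks populations that can carry CD11c and CXCR3 and that are found in infection, ageing and autoimmunity. IL-12 is a pair of p35 and p40 and IL-23 a pair of p19 and p40, so mice without p40 make neither of them, and the IL-12 input was missing as a ligand in both groups compared here.

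Of the 9 genes, Tbx21 alone passed the thresholds of the study, a 2-fold difference or more at an unadjusted p of at most 0.05, and it was 3.84-fold higher in p40-/- CD25-/- B1a cells. Both probes of Il12rb1 read higher on each knockout array than on any control array, by 1.46-fold and 1.56-fold. Of all tested probes, 2.38% were higher by those thresholds and 15.6% had each knockout array above each control array. Stat4, Ifngr1, Ifngr2 and the brighter probe of Zeb2 differed by 1.19-fold or less. The dimmer probe of Zeb2 was 1.61-fold higher, with overlap between the groups. Itgax, Il12rb2 and Ifng were not well above background on all 3 arrays of either group and were not tested, and Ifng was well above background on 1 array, that of knockout 3.

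The probes are 60 bases long, and the middle stretch of 30 bases is shown for those on which the results turn, as the array files give them, so that it can be seen which part of each transcript was read. The capitals mark AATAAA, the polyadenylation signal, which 1 of the 12 probes holds in this stretch.

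Tbx21: ttattgtagagagtggtgtctggatgtatt
Il12rb1, brighter probe: gtattgggcacttAATAAAtgggccttccc
Il12rb1, dimmer probe: cgcgtctctgggaagcttcgccagcgtcct
Zeb2, brighter probe: aaaattccactttcttcatcttgtttttta
Zeb2, dimmer probe: atatgtgaaagcaatgttattgtagatgtt
Stat4: aaactggagagtgttctttaccatagatca
Ifng: gaaaactgtgactacacccgaatgacaaat

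All levels below are log2 of the processed signal relative to the 75th percentile of the array, and all differences are knockout minus control on that log2 scale. The 75th percentile was 264, 252 and 272 on the control arrays, against 131, 66.5 and 162 on the knockout arrays, which were thus dimmer. Between 47.2% and 50.6% of spots were well above background on control arrays and between 39.7% and 45.9% on knockout arrays. The lowest level that counted as well above background was -4.44, -4.48 and -3.98 on the control arrays, against -3.20, -2.41 and -3.67 on the knockout arrays. Il2ra, the gene of CD25, was 1.62, 1.13 and 1.35 on the control arrays, against -0.31, -0.59 and 0.86 on the knockout arrays, so that knockout 3 lay nearer to the controls than to the other knockouts though below all controls. It differed by -1.38 (standard error 0.37, limma adjusted p = 0.119) and Il12b, the gene of p40, by -0.02, and both probes were well above background on all 6 arrays. Whether these probes lie within the deleted parts is not given in the sources used here. Of the markers fixed for B cells, 13 of 13 on the array were well above background on all 6 arrays, as were 13 of 13 fixed for B1a cells. The 6 arrays shared 1 slide and 1 scan. Their number limits the precision, since an exact permutation test of 3 against 3 cannot go below p = 0.1.

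Tbx21 was read by 1 probe, at chr11:96959417-96959476 on the minus strand (mm9). Its level was -2.73, -3.68 and -3.83 on control 1, 2 and 3, against -1.43, -1.91 and -1.08 on knockout 1, 2 and 3. All 3 knockout arrays lay above all 3 control arrays, and the probe was well above background on all 6. The lowest level that counted as well above background on knockout 2, -2.41, was itself above all 3 control levels. Detection on knockout 2 thus fixed its place above the controls, and its lack of overlap adds nothing to that detection. Control samples had a mean level of -3.42 ± 0.60 and knockout samples one of -1.47 ± 0.42 (SD, n = 3 each), a log2 difference of 1.94 with a standard error of 0.34 and a 95% interval from 1.15 to 2.73 (limma, unadjusted p = 0.000586, adjusted p = 0.0829). The difference passed the 2-fold thresholds but not the adjusted p over the 24753 tested probes. It remained between 1.73 and 2.29 whichever array was left out, and was 1.75 without knockout 3, where the level was highest.

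The signal behind these levels was low. Before the local background was subtracted, the mean signal of the Tbx21 spot was 68.0, 48.4 and 50.2 on the control arrays, against 79.3, 48.4 and 103.7 on the knockout arrays, against local background medians of 22 to 30. The processed signal, not yet scaled, was 39.7, 19.7 and 19.1 on the control arrays, against 48.6, 17.7 and 76.6 on the knockout arrays. The groups overlapped on that unscaled signal, since knockout 2, the dimmest array, read below all control arrays. Knockout 2 came to lie above them after division by its own 75th percentile. With no scaling between arrays, an alternative added after the data were seen, Tbx21 was 0.72 higher (limma, unadjusted p = 0.159), and it was the only 1 of the 8 tested member probes with a positive difference on that scale. It was higher under all 19 processing alternatives set with the design and passed the 2-fold thresholds under 18 of them. Normexp background correction followed by quantile normalization gave the lowest difference, 0.53, which is below 2-fold.

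**Figure D1:**
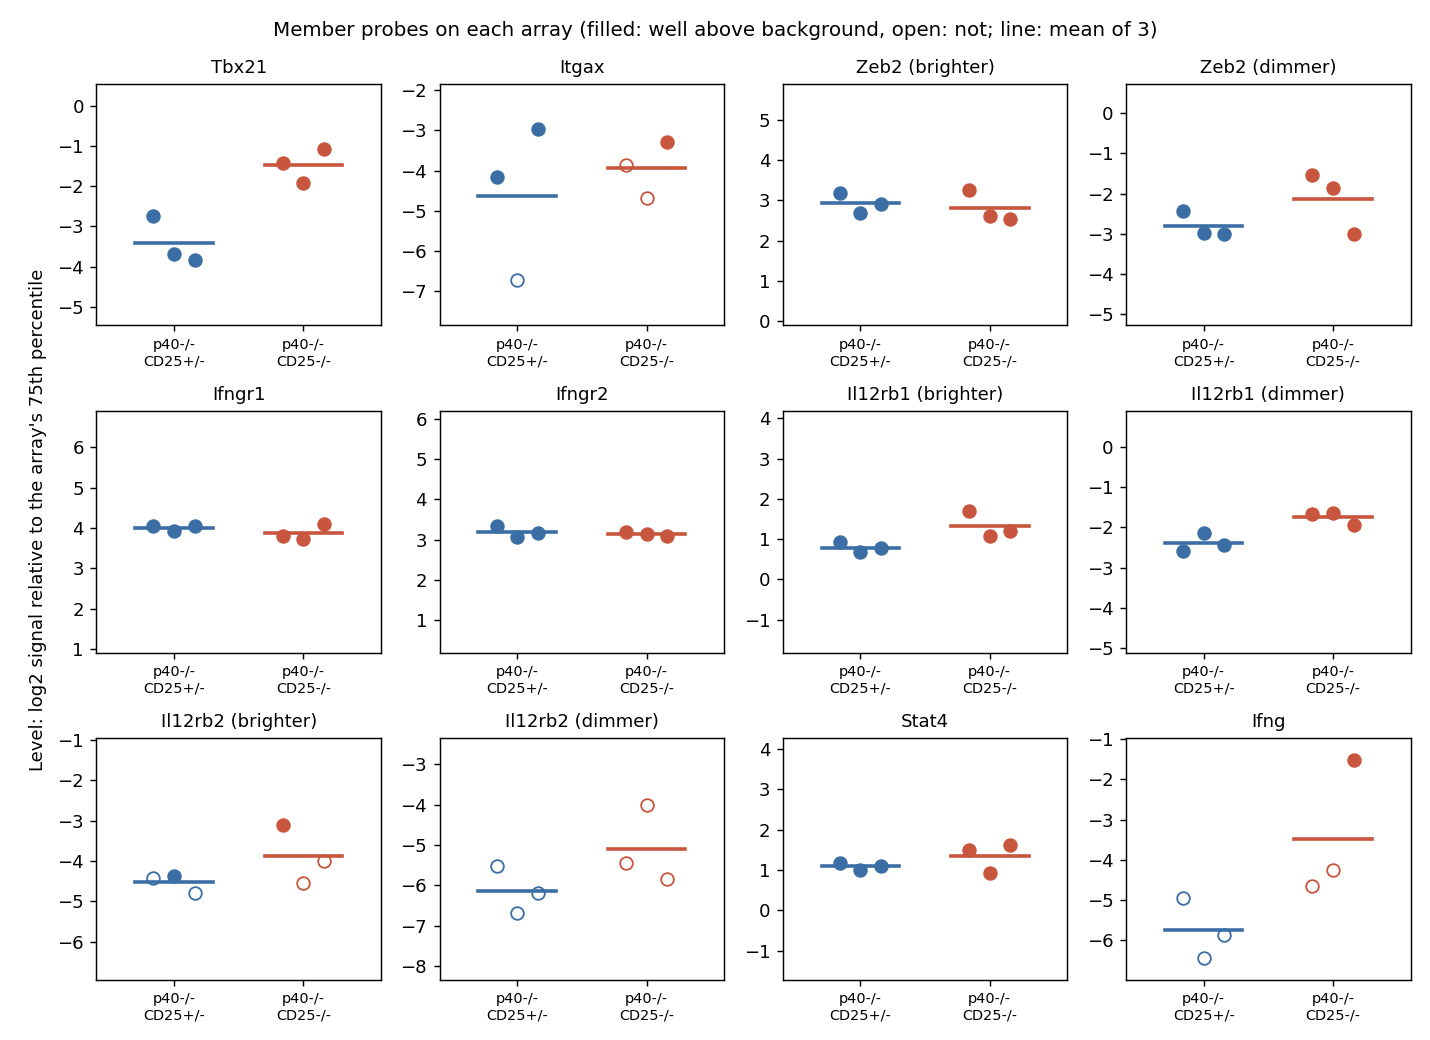
Level of each of the 12 member probes on each array (log2 of the processed signal relative to the array's 75th percentile, vertical axis of equal span in each panel), with the 3 control arrays in blue and the 3 knockout arrays in red, from replicate 1 at the left to replicate 3 at the right. Filled points are well above background, open points are not, and lines are group means. The points of Tbx21 and of both Il12rb1 probes do not overlap between groups, and Ifng is filled on the array of knockout 3 only.

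Of all 24753 tested probes, 2.38% were higher and 1.26% lower by the same thresholds, and 0.0808% passed the adjusted p. Of the 8 tested member probes, 1 was higher, 0 were lower and 0 passed the adjusted p in limma, while 3 had an unadjusted p under 0.05, where 24.6% of all tested probes did. Each knockout array exceeded each control array for 3 of the 8, and for 15.6% of all tested probes. The median difference of the 8 was 0.40, against -0.09 over all tested probes. Differences depended on the level, and the median was 0.11 in the dimmest of 4 equal groups of probes by mean level and -0.19 in the brightest. In the dimmest group, which holds the probe of Tbx21 and the dimmer probes of Zeb2 and Il12rb1, 4.98% of probes were higher by the thresholds and 17.7% had all knockout arrays above all control arrays. In the brightest group, which holds Ifngr1, Ifngr2 and the brighter probe of Zeb2, 0.549% were higher by the thresholds.

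**Figure D2:**
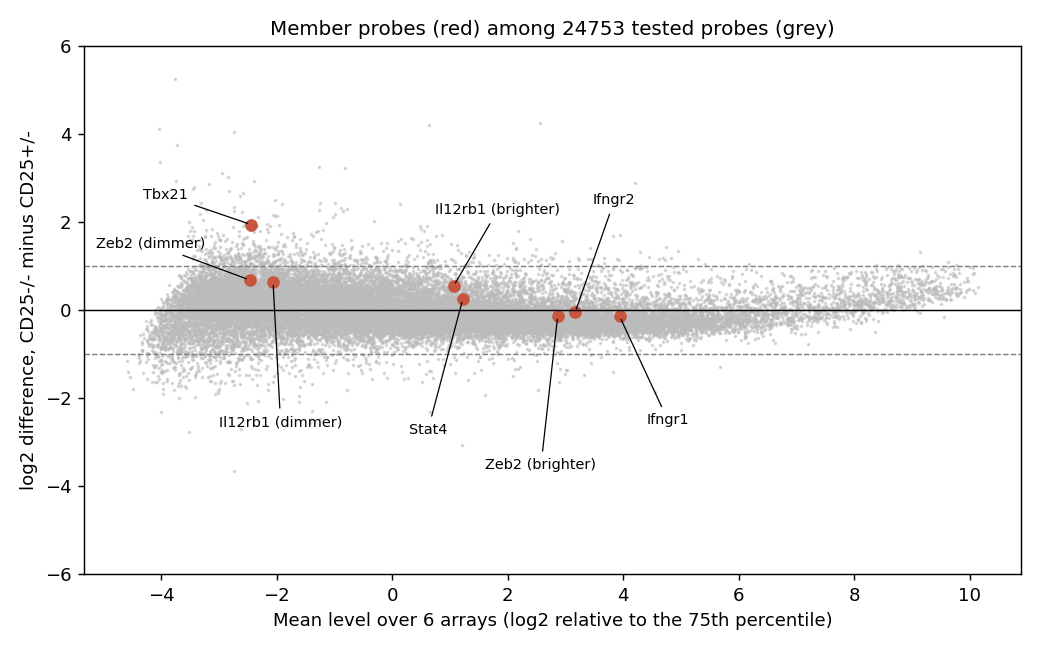
Log2 difference, knockout minus control, against the mean level over the 6 arrays for all 24753 tested probes (grey) and the 8 tested member probes (red, named), with dashed lines at 2-fold. Tbx21, at 1.94, lies above the 2-fold line at the dim end, and the other 7 member probes lie between the lines.

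The inputs were read next, beginning with the IL-12 receptor. Il12rb1 encodes the chain that the receptors of IL-12 and IL-23 share, and it was read by 2 tested probes on the plus strand of chromosome 8 (mm9), 2021 bases apart. The brighter probe, at chr8:73345261-73345320, was 0.92, 0.67 and 0.78 on the control arrays, against 1.70, 1.08 and 1.21 on the knockout arrays. Every knockout array was higher than every control array, with knockout 1 the highest, and the log2 difference was 0.54 (standard error 0.20, 95% interval from 0.08 to 1.00, limma adjusted p = 0.164). The dimmer probe, at chr8:73343240-73343299, was -2.57, -2.14 and -2.44 on the control arrays, against -1.66, -1.64 and -1.93 on the knockout arrays. These groups did not overlap either, and the log2 difference was 0.64 (standard error 0.18, 95% interval from 0.23 to 1.05, limma adjusted p = 0.120). Both probes thus read a difference of the same direction and of like size, although one was dim and the other of middle level. The 95% intervals lie above 0 and reach just past 2-fold. Both differences were positive under each of these 19 alternatives that tested them, from 0.33 to 0.69 for the brighter and from 0.19 to 0.76 for the dimmer probe, and both were negative with no scaling between arrays. The brighter probe was 0.36 without knockout 1, over 1.5 times less than with it.

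Il12rb2 encodes the chain that is particular to the IL-12 receptor and that binds STAT4. It was read by 2 probes on the minus strand of chromosome 6, 244 bases apart, and neither was tested. The probe at chr6:67242256-67242315 was -4.43, -4.37 and -4.78 on the control arrays, against -3.11, -4.56 and -4.00 on the knockout arrays, and it was well above background on control 2 and knockout 1 only. The probe at chr6:67242012-67242071 was -5.53, -6.69 and -6.19 on the control arrays, against -5.44, -4.00 and -5.84 on the knockout arrays and was well above background on none. The groups overlapped at both probes, and no level of Il12rb2 that could be compared was measured in either genotype.

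Stat4 encodes the transducer that the IL-12 receptor activates. Its probe, at chr1:52163802-52163861 on the plus strand, was 1.19, 0.99 and 1.10 on the control arrays, against 1.50, 0.92 and 1.63 on the knockout arrays. Knockout 1 and 3 were above and knockout 2 below all control arrays, and the log2 difference was 0.26 (standard error 0.21, 95% interval from -0.24 to 0.75, limma adjusted p = 0.445). Changes of 2-fold in either direction lie outside that interval, and 0 lies within it. Without knockout 2 the difference was 0.47 and without knockout 3 it was 0.12.

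The 2 chains of the interferon gamma receptor had steady levels. Ifngr1, the ligand binding chain, with a probe at chr10:19329923-19329982, was 4.05, 3.93 and 4.04 on the control arrays, against 3.79, 3.73 and 4.08 on the knockout arrays. Ifngr2, the signalling chain that brings JAK2, with a probe at chr16:91563982-91564041, was 3.34, 3.06 and 3.18 on the control arrays, against 3.18, 3.14 and 3.09 on the knockout arrays. The groups overlapped for both genes. The log2 differences were -0.14 for Ifngr1 (95% interval from -0.50 to 0.23, limma adjusted p = 0.577) and -0.05 for Ifngr2 (95% interval from -0.39 to 0.29, limma adjusted p = 0.823), so that changes of 2-fold lie outside both intervals. Their signs turned with the scaling, to 0.04 and 0.14 after quantile normalization, and no direction is given for either.

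Ifng was read by 1 probe printed at 2 spots of each array, at chr10:117882841-117882900 on the plus strand. Its level was -4.94, -6.43 and -5.86 on the control arrays, against -4.65, -4.26 and -1.53 on the knockout arrays. Knockout 3 stood apart from the other 5 arrays, and its 2 spots gave -1.50 and -1.55 and were both well above background, which no spot was on any other array. The mean signal of the 2 spots on knockout 3 was 89.9 and 89.6 before subtraction, against 31.4 to 42.6 on the other arrays. Ifng was therefore seen in 1 of 3 knockout samples and was not tested. Among the markers fixed for other cells, 2 of 19 for T cells were well above background on knockout 3 alone, Cd8a and Cd8b1. So were 3 of 17 for NK cells and innate lymphocytes, Gzmb, Eomes and Il7r, and 1 of 15 for dendritic cells, Zbtb46. In these 3 lists, 4, 9 and 3 markers were well above background on no array, and 10, 4 and 7 on all 6. Over the whole array, 503 of 55681 probes were well above background on knockout 3 alone, against 364 and 289 on knockout 1 and 2 alone and 614 to 1155 on a single control array alone.

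Itgax encodes CD11c, a surface integrin chain of dendritic cells and of T-bet positive B cells. Its probe, at chr7:135294052-135294111 on the plus strand, was -4.17, -6.72 and -2.96 on the control arrays, against -3.87, -4.69 and -3.29 on the knockout arrays. It was well above background on control 1, control 3 and knockout 3 and was not tested. The control arrays spanned a wider range than the knockout arrays and included both the highest and the lowest level, so no difference between genotypes was detectable.

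Zeb2 encodes a zinc finger repressor that acts with T-bet in NK and CD8 T cells. Its 2 tested probes lie 2736 bases apart on chromosome 2, minus strand. The brighter probe, at chr2:44842774-44842833, was 3.19, 2.70 and 2.91 on the control arrays, against 3.26, 2.60 and 2.54 on the knockout arrays. The groups overlapped, and the log2 difference was -0.13 (standard error 0.24, 95% interval from -0.69 to 0.43, limma adjusted p = 0.735). The dimmer probe, at chr2:44840038-44840097, was -2.44, -2.99 and -3.01 on the control arrays, against -1.53, -1.86 and -2.99 on the knockout arrays. Knockout 1 and 2 were above all control arrays and knockout 3 was among them, and the log2 difference was 0.68 (standard error 0.38, 95% interval from -0.20 to 1.57, limma adjusted p = 0.284). The probes of Zeb2 thus differed in sign, unlike those of Il12rb1. The dimmer one reached the 2-fold thresholds without knockout 3, at 1.12, and the sign of the brighter one turned with the scaling.

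**Figure D3:**
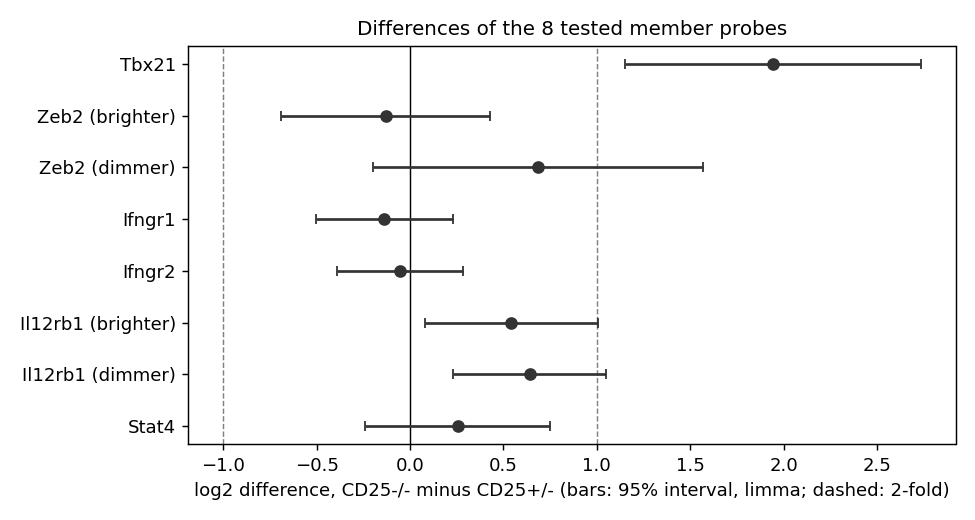
Log2 difference, knockout minus control, of the 8 tested member probes (points) with 95% intervals from limma (bars, 3 arrays per group) and dashed lines at 2-fold. The interval of Tbx21, from 1.15 to 2.73, lies beyond the 2-fold line, those of both Il12rb1 probes lie above 0, and the other 5 cross 0.

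Other genes of the pathway were read through lists, with each gene represented by its brightest tested probe. Over all 18254 genes tested, 2.26% were higher and 1.28% lower by the study's 2-fold thresholds. Of 27 genes of IL-12 and interferon gamma inputs, from cytokines and receptors to kinases and transducers, 21 were tested, 0 were higher and 1 was lower, with a median difference of -0.02. The lower one was Il18, the cytokine that acts with IL-12 to induce interferon gamma, at 3.75, 3.80 and 3.60 on the control arrays, against 2.43, 1.80 and 2.60 on the knockout arrays. Its groups did not overlap, and it was lower by a log2 difference of -1.44 (standard error 0.23, limma adjusted p = 0.0769). Without knockout 3 the list had 2 lower genes, the added one being Il6st. Of the kinases and transducers, chosen here after their values were seen, Jak1, Jak2 and Tyk2 differed by -0.04, -0.18 and -0.47 and Stat3 by 0.07. The cytokine genes Il12a, Il23a and Il21 and the receptor genes Il23r, Il18r1 and Il18rap were not tested.

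Of 16 partners, repressors and relatives of T-bet, 13 were tested, 1 was higher and 0 were lower, with a median difference of -0.02. The higher one was Bhlhe40, a basic helix-loop-helix factor that promotes interferon gamma in T cells, at -0.58, -1.37 and -0.53 on the control arrays, against 0.70, 0.34 and 0.50 on the knockout arrays. No array overlapped, and the gene was 1.34 higher (standard error 0.25, limma adjusted p = 0.0888). Normexp with quantile normalization left Bhlhe40 at 0.98, short of 2-fold, and the list with 0 higher genes, while the list had 2 without control 3 or without knockout 1. Eomes, the other T-box factor of these responses, and Gata3 were not tested.

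Of 17 T-bet target genes known from T and NK cells, 10 were tested, 4 were higher and 0 were lower, with a median difference of 1.13. These were Ccl5, Cxcr3, Il2rb and Nkg7, and some of them were known to differ on these arrays when the list was written, so their number is not independent of the data. Ccl5, a chemokine that draws T cells, was -0.43, -2.34 and -1.63 on the control arrays, against 1.27, 2.71 and 4.22 on the knockout arrays. The difference was 4.20 on the log2 scale (standard error 0.76, limma adjusted p = 0.0888), and no array of a group overlapped with the other group. Cxcr3, the receptor of interferon induced chemokines, was -2.45, -2.73 and -2.63 on the control arrays, against -1.22, -0.84 and -0.47 on the knockout arrays, a difference of 1.76 (standard error 0.22, limma adjusted p = 0.0544). Il2rb, the beta chain that the receptors of IL-2 and IL-15 share, was -2.02, -2.51 and -2.64 on the control arrays, against -0.83, -1.01 and -1.02 on the knockout arrays, a difference of 1.44 (standard error 0.20, limma adjusted p = 0.0685). Both genes were thus higher on every knockout array, and neither passed the adjusted p. For Cxcr3, the lowest level that counted as well above background on knockout 2, -2.41, was itself above all control levels. Nkg7, of cytotoxic granules, was just past 2-fold at 1.00 (standard error 0.26, limma adjusted p = 0.116), and it fell short of 2-fold at 0.84 without knockout 3. It also fell short without knockout 2 (0.855), without control 1 (0.95) and with array weights (0.78). With normexp it was 0.69 under the 75th percentile and 0.94 under quantile normalization. The count was 3 without knockout 3 and between 3 and 5 with each array left out in turn, and 1 gene was lower without knockout 3. The median rested on knockout 2 in part, being 0.57 with 6 of 10 positive without it, against 8 of 10 with it, and it was 0.39 with array weights. With normexp background correction and quantile normalization the median was 0.67 and 1 gene, Ccl5, was higher.

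The other tested T-bet target genes did not pass. Ccl3 and Ccl4, chemokines of activated lymphocytes and macrophages, had their highest levels on knockout 2, at 3.87 and 3.62, and their next highest on control 3, at 1.90 and 1.07, so that the groups overlapped. Hopx, a homeodomain protein, differed by -0.92 with no overlap (limma adjusted p = 0.0933), and Serpina3g, a protease inhibitor, by 0.43. Prf1, the gene of perforin, differed by 0.15. Xcl1 and Il18rap were not well above background on any array.

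**Figure D4:**
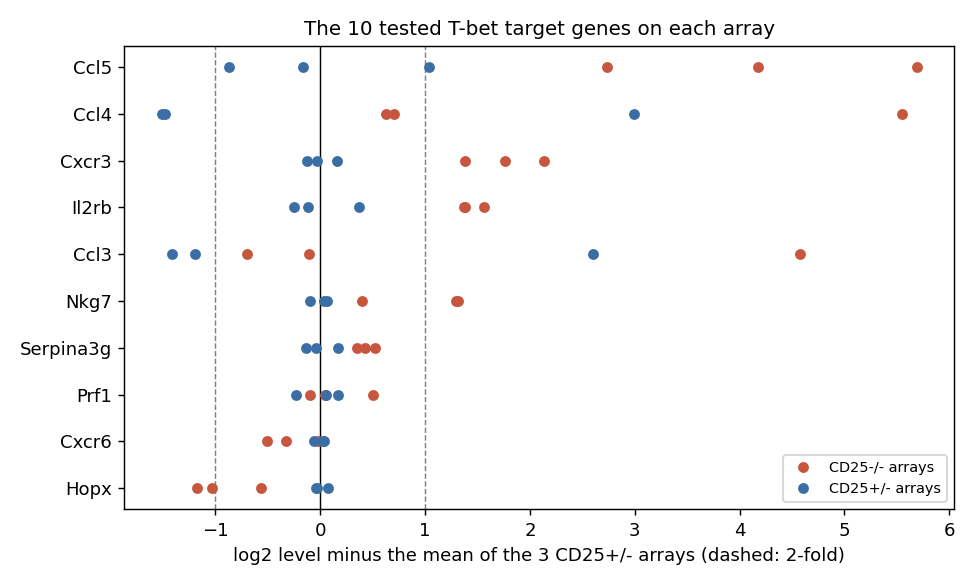
Levels of the 10 tested T-bet target genes on each array (log2), minus the mean of the 3 control arrays, with control arrays in blue, knockout arrays in red and dashed lines at 2-fold. The groups of Ccl5, Cxcr3, Il2rb, Nkg7 and Serpina3g do not overlap with knockout arrays higher, those of Hopx do not overlap with knockout arrays lower, and Ccl3 and Ccl4 are set by knockout 2 and control 3.

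Of 10 other genes described in T-bet positive B cells, 9 were tested, and Cxcr3, which is on both lists, was the 1 higher gene, with 0 lower. Without knockout 3 there were 2, Itgam being the other at 1.09. Of 6 genes that are low in such cells, all 6 were tested and 0 were higher or lower. In the interferon gamma response, 25 genes were listed, 24 were on the array and 20 were tested, of which 2 were higher and 0 lower, with a median difference of 0.16. Tgtp2, a GTPase of the interferon response, was 1.92, 1.59 and 1.43 on the control arrays, against 4.46, 3.97 and 3.73 on the knockout arrays. Its log2 difference of 2.41 (standard error 0.23) had a limma adjusted p of 0.0407 and was the only 1 in these pathway lists to pass the adjusted p. That call was lost with quantile normalization (0.0569), the deposited values (0.0588), the replicate block (0.0805), no filter on dim probes (0.0556) and the methods' t-test (0.137 after adjustment). It was also lost without control 1 (0.0984), control 2 (0.195), control 3 (0.237) or knockout 2 (0.0725), while the difference stayed past 2-fold under each of these settings. Its near-identical neighbour Tgtp1 can share transcripts with it, so which of the pair was read is uncertain. Nlrc5, the transactivator of MHC class I genes, differed by 1.16 (standard error 0.19, limma adjusted p = 0.0784). Without control 2 or without knockout 1 the list had 3 higher genes. Of the 20, 15 had a positive difference, and in 7 each knockout array exceeded each control array, against 14.7% of all genes tested, while 0 did so in the other direction. The summed signal of the 20 tested genes, most of it from Cd74, was 966 to 1070 on the control arrays and 1159 to 1312 on the knockout arrays, in units of the 75th percentile. Without knockout 1 the median difference was 0.0093 with 10 of 20 positive, and with normexp before the 75th percentile it was -0.13 with 6 of 20 positive, so the shift of the list depended on 1 array and on the processing.

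Markers of other cells that express T-bet were read on the same arrays. Of 19 T cell markers, 11 were tested, 3 were higher and 0 lower, with a median difference of 0.60. These were Thy1, a surface glycoprotein of T cells, at 2.13, Cd3d, a chain of the T cell receptor complex, at 1.41, and Zap70, its kinase, at 1.23, with limma adjusted p-values of 0.133, 0.190 and 0.120. The count was 2 without control 2, knockout 2 or knockout 3 and 4 without control 1. It was 2 with quantile normalization, the replicate block or array weights, 1 with the methods' t-test and 0 with normexp and quantile normalization. Thy1 was 1.41 without knockout 3, and Cd3d, between 0.89 and 2.02 with each array left out, lost its call without control 2, control 3, knockout 2 or knockout 3. The call of Cd3d was also lost with array weights, the replicate block, the methods' t-test and no filter on dim probes. The same held with the deposited values and with quantile normalization, with or without normexp. The summed signal of the 11 tested, in units of the 75th percentile, was 269 to 283 on the control arrays, against 224, 247 and 306 on knockout 1, 2 and 3, most of it from Cd2. Between 10 and 12 of the 19 were well above background on control arrays and 11, 11 and 13 on the knockout arrays, and Bcl11b, Trat1, Ubash3a and Cd27 were on none. Of 17 markers of NK cells and innate lymphocytes, 5 were tested and 1 was higher, Nkg7, with 0 higher without knockout 2 or without knockout 3. The summed signal of the 5 tested was 49.3 to 56.2 on the control and 37.8 to 44.0 on the knockout arrays. Ncr1, Klrb1c and 6 other Klr and Klra genes were not well above background on any array, while 4 to 5 of the 17 were on control arrays and 5, 5 and 8 on knockout 1, 2 and 3. The part of T cells in the differences of Tbx21, Ccl5, Cxcr3 and Ifng was not tested. In bulk RNA, more cells of a type and more RNA per cell cannot be told apart.

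Markers of myeloid cells were also read. Of 21 macrophage and monocyte markers on the array, 18 were tested, 0 were higher and 2 were lower, Lyz2 at -1.08 and Mrc1 at -1.08, with limma adjusted p-values of 0.164 and 0.106, and the number of lower ones ranged from 0 without knockout 1 to 3 without control 3 or knockout 2. The summed signal of the 18 tested was 381 to 429 on the control arrays and 370 to 416 on the knockout arrays. Of 15 dendritic cell markers, which bear on Itgax, 8 were tested, with Ccl17 higher at 1.91 and Batf3 lower at -1.42. Xcr1 and Clec9a were not well above background on any array, and the call of Batf3 was lost without control 2 or knockout 1. The call of Batf3 was also lost with normexp under either scaling and with the methods' t-test. Cd72 was the 1 B cell marker that was higher, at 1.42, and Tppp3 the 1 B1a cell marker that was lower, at -1.64. The call of Tppp3 was lost without control 2 or knockout 1, and with quantile normalization, the deposited values or the methods' t-test. It was also lost with trend and robust estimation, without a filter on dim probes and when scaled on the median of probes detected on every array. Of the 13 B1a cell markers, 10 had a negative difference, with a median of -0.23, and in 5 each knockout array was below each control array, against 21.6% of all genes tested, with 2 the other way. The median over all tested genes was -0.12, and over the brightest of the 4 groups of probes by mean level it was -0.19 with 32.0% of probes lower on each knockout array, so the values of the list lay near this background. Their summed signal was 365 to 392 on the control arrays and 326 to 351 on the knockout arrays. The median of the list was between -0.32 and -0.17 with each array left out, and the part of these markers in the differences of the members was not tested.

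The genes whose levels were most like those of Tbx21 across the 6 arrays were sought among 9671 other genes whose brightest probe was well above background on all of them. Likeness was the root mean square difference of log2 levels after each probe was centred on its own mean. The 5 nearest were Ctla2b, a cysteine protease inhibitor, at 0.17, Cx3cl1, the chemokine fractalkine, at 0.29, Lrrk2, a kinase, at 0.30, Laptm5, a lysosomal membrane protein of leukocytes, at 0.31, and Myl4, a myosin light chain, at 0.37, where the median over all was 1.15. Ctla2b was -2.75, -3.51 and -3.76 on the control arrays, against -1.73, -1.97 and -1.34 on the knockout arrays, so that it followed Tbx21 array by array. Of the members that could be ranked, Il12rb1 was at 297, Stat4 at 803, Ifngr2 at 2740, Ifngr1 at 3466 and Zeb2 at 3794. The points share 1 slide and the split by genotype, and these values are a description over 6 arrays.

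Probes within 100 kb of a member probe were read for the genomic context. Of 76 such probes of 49 genes, 45 were tested, and 1 was higher and 0 lower by the thresholds. Over all tested probes, 2.38% were higher and 1.26% lower. The higher neighbour was 2010320M18Rik, 41524 bases from the Il12rb1 probes, at 1.30 (standard error 0.45, limma adjusted p = 0.156). No neighbour of Tbx21 passed.

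The promoters of the members were searched for the T-box element TCACACC and for the interferon gamma activated sequence (GAS), as TTCNNNGAA, on both strands of the 250 bases before each start in RefSeq (GRCm38.p6). There were windows for 8 of the 9 genes, Il12rb1 being without one. No member's window held TCACACC, which 3.33% of all 32851 windows do. TTCNNNGAA, found in 7.02% of all windows, was in those of Il12rb2 and Ifng and in 2 overlapping windows of Zeb2. The windows of Tbx21, the gene that was higher, and of Il12rb2 are shown, with the match in capitals, at chr11:97115332-97115581 and chr6:67376189-67376438 (GRCm38.p6, both on the minus strand). A match is only a description of these letters.

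Tbx21: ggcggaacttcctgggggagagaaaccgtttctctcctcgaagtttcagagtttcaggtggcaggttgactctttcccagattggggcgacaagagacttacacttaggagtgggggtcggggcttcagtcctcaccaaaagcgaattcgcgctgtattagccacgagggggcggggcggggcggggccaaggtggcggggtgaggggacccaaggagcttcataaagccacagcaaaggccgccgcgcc
Il12rb2: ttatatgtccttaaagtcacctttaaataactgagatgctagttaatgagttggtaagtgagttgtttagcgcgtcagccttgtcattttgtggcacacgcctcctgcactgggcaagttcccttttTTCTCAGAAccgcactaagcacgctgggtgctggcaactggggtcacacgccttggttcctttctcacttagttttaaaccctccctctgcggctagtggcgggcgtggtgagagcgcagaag

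**Figure D5:**
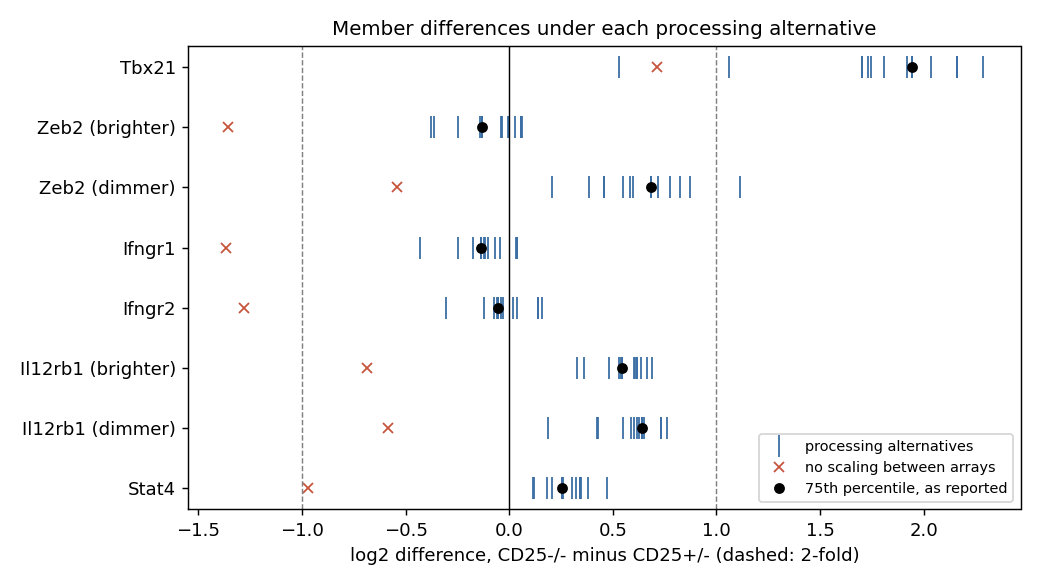
Log2 difference, knockout minus control, of the 8 tested member probes as reported (black points), under each of the 19 processing alternatives (blue ticks) and with no scaling between arrays (red crosses), with dashed lines at 2-fold. Tbx21 is positive throughout, from 0.53 to 2.29 over these alternatives, the Il12rb1 probes and Stat4 are positive except with no scaling, and Ifngr1, Ifngr2 and the brighter Zeb2 probe fall on both sides of 0.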

How the data were processed

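The authors deposited 6 one-colour arrays as Agilent Feature Extraction 10.7.1.1 gave them, with 1 processed intensity per spot after background subtraction and no scaling between arrays. They also deposited quantile normalized log2 values, used here as an alternative. Coordinates of probes are those of the file headers (mm9). From the intensities, levels were computed as log2 of the processed signal minus the 75th percentile over 59305 non-control spots. Between 163 and 251 outlier spots per array were left out and spots of a probe averaged. Tests covered the 24753 of 55681 probes (18254 genes) that every array of one group or the other read well above background. Genotypes were compared with lmFit and eBayes (limma 3.58.1, R 4.3.3), without covariates, and p-values adjusted by Benjamini-Hochberg over all tested probes. The steps were tested on simulated data. The design text gives triplicates and also 6 or more independent experiments, and how the arrays relate to those is not stated, nor whether replicates were separate sorts. P-values therefore measure only the spread between these arrays, which may be partly technical. Members and lists were chosen with earlier results of these data known. Genes named outside the members were those past the 2-fold thresholds in each list, up to 3 with the largest and 2 with the smallest difference, the deleted genes, neighbours past the thresholds and the 5 genes most like Tbx21. Others are marked as chosen after their values were seen. Some genes that the lists cover are not reported here.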

Additional observations from a re-analysis of the deposited data

How the results depend on the processing

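Over 20 alternatives, 19 of them set with the design, the 8 tested member probes gave 158 differences, of which 135 kept the direction and the side of the 2-fold thresholds. The number of higher member probes was 1 as reported, 0 with normexp and quantile normalization (Tbx21 at 0.53), 2 of 12 without a filter on dim probes, where 18636 of all 55681 probes were higher, and between 1 and 2 with each array left out, the 2 being without knockout 3 (the dimmer Zeb2 probe at 1.12). The number past the adjusted p was 0 as reported and under most alternatives, 3 with normexp and the 75th percentile, 1 with a trend and robust estimation and 1 with array weights, where limma called 9328, 980 and 689 of all probes. Signs turned for the brighter Zeb2 probe, to 0.055 with quantile normalization, 0.063 with normexp and quantile normalization, 0.056 with the deposited log2 values, 0.029 with array weights and 0.0015 without knockout 3 (between -0.36 and 0.0015 with each array left out). For Ifngr1 they turned to 0.037, 0.031 and 0.037 with the first 3 of these settings, and for Ifngr2 to 0.14, 0.16 and 0.14, as well as to 0.038 when scaled on the median of probes detected on every array and 0.020 without control 1 (between -0.12 and 0.020 with each array left out). With no scaling between arrays, added after the data were seen, the median of all 24753 probes was -1.32, with 18016 lower and 17751 past the adjusted p. Then 0 member probes were higher, 3 were lower (the brighter Zeb2 probe at -1.36, Ifngr1 at -1.37 and Ifngr2 at -1.28) and these 3 passed the adjusted p, Tbx21 was at 0.72, and the sign turned for the dimmer Zeb2 probe (-0.54), the Il12rb1 probes (-0.68 and -0.59) and Stat4 (-0.97). The 4 higher T-bet target genes became 1 with normexp and quantile normalization and 1 with no scaling. The labels number the replicates of both groups 1 to 3, and deviations of samples with the same number correlated at 0.175, 0.057 and 0.12, so the numbers were not taken as pairs. With the replicate number as a block, 1 member probe was higher and 0 passed the adjusted p, with Tbx21 at 1.94 (limma adjusted p = 0.119), and over all probes 591 were higher and 313 lower, against 589 and 311 without it. The causes of these shifts were not tested. Signal over background limits the dim probes, Tbx21 among them, and leaves Il12rb2, Itgax and Ifng without a comparison.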
